A study of Homo sapiens with 12 samples.

Results

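Embryoid bodies of the H1 human embryonic stem cell line were compared after depletion of METTL14, with all 3 hairpins set against the scrambled control. The comparison took every H1 library of the series, 8 of 12 libraries in all, and left out the libraries of the other line, MEL1. H1 is an established embryonic stem cell line, and embryoid bodies are the aggregates such cells form when they differentiate in suspension. Each H1 population carried a lentiviral SMARTvector with a doxycycline-inducible short hairpin RNA and had been selected with puromycin at 2 µg/ml. The knockdown groups KD1, KD2 and KD3 (named iKD1, iKD2 and iKD3 in the design text) each carry another hairpin against METTL14, and the control group SCR carries a hairpin named iSCR. Microwells were seeded with 500 cells each and the aggregates grown for 10 days. Doxycycline at 2 µg/ml was given to all 4 groups, the controls included. Each group had 2 libraries, giving 6 knockdown and 2 SCR libraries. The labels do not say whether the 2 libraries of a group came from separate cultures, so all p-values measure only the spread between these libraries. Each hairpin came with its own transduced population, and the labels name no second population per hairpin in H1, so an effect of the hairpin and one of the population that carries it cannot be told apart.

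METTL14 is a subunit of the methyltransferase that writes N6-methyladenosine (m6A) on RNA as it is transcribed. It binds the catalytic subunit METTL3 and helps to hold the RNA, and WTAP, VIRMA, ZC3H13 and RBM15 join them in the larger complex. The mark can shorten the life of a transcript, change its splicing or change its translation, and in pluripotent cells it is best known for limiting transcripts that maintain or leave the pluripotent state. RNA sequencing without a map of m6A, as here, measures the level of each transcript and not its methylation.

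The values are counts estimated per gene and are given as CPM, counts scaled to a common library total. CPM is not divided by transcript length, so a level is compared only with the level of the same gene in another library. The H1 libraries held 36609628 to 43418128 estimated counts. The 2 libraries of a group correlated at 0.9755 to 0.9796 across genes on the log2 scale, and no 2 libraries agreed within counting noise. Libraries also differed by the GC content of their genes within as well as between groups. Across 10396 genes of at least 10 CPM, the rank correlation of a library's deviation from the mean with GC content was 0.234 and -0.507 in the SCR libraries, 0.322 and 0.629 with KD1, -0.24 and 0.157 with KD2, and 0.0397 and -0.551 with KD3. Removing a trend on GC content and length is therefore one of the alternatives given at the end.

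METTL14 (ENSG00000145388) lies on the plus strand of chromosome 4 at 118685368 to 118715433 in GENCODE release 29 on GRCh38. Its level was 30.5 and 45 CPM with SCR. It was 11.6 and 11.6 CPM with KD1, 17.9 and 15.3 CPM with KD2, and 9.19 and 13.7 CPM with KD3. Every knockdown library was below both SCR libraries. The log2 fold change against SCR was -1.70 (SE 0.23) with KD1, -1.18 (SE 0.23) with KD2 and -1.72 (SE 0.23) with KD3. Averaged over the hairpins it was -1.54 (SE 0.17, edgeR adjusted p = 0.00333), and the test among hairpins gave an adjusted p of 0.253.

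The labels call the cells human embryonic stem cells, while the material harvested was day 10 embryoid bodies, and marker genes were read in that light. Neural and pluripotency genes were both measured in every library: SOX2, a regulator of both states, was at 446 and 428 CPM with SCR and PAX6, a neuroectoderm regulator, at 142 and 98.4 CPM. POU5F1, the core pluripotency regulator, was still at 63.7 and 60.2 CPM with SCR. Defining markers of several other lineages were at or near 0 in every library. The endoderm regulator FOXA2 reached at most 0.124 CPM, the heart regulator NKX2-5 at most 0.0957 CPM and the heart and endoderm regulator GATA4 at most 0.305 CPM, while the epidermal keratin KRT14 had no counts. KRT14 does not stand for its list, since 18 of 22 surface ectoderm and epidermis genes were tested. The keratin genes KRT8 and KRT18 of that list were at 480 and 415 CPM and at 282 and 271 CPM with SCR. Of the lists of lineage markers, 12 of 26 endoderm and liver genes, 13 of 25 heart and muscle genes and 13 of 24 trophoblast and amnion genes had counts enough to be tested. In such bulk RNA, fewer cells of a type and less RNA per cell cannot be told apart.

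Depletion was followed by more falls than rises with the settings used here, but not in every alternative. Of 22027 genes tested, 1926 (8.74%) differed from SCR in the average of the 3 hairpins at an edgeR adjusted p under 0.05, 689 (3.13%) higher and 1237 (5.62%) lower. By hairpin, KD1 called 2804 genes (12.7%; 5.68% higher and 7.05% lower), KD2 called 440 (2%; 0.881% higher and 1.12% lower) and KD3 called 917 (4.16%; 1.78% higher and 2.38% lower). A set of 151 genes (0.686%) was called in 1 direction with every hairpin, 52 higher (0.236%) and 99 lower (0.449%). The 3 comparisons share the SCR libraries, so this set is a count and not a test. A few identifiers have identical counts, and the set holds 51 distinct risers and 96 distinct fallers. With the trend on GC content and length removed, 252 genes were higher and 247 lower with every hairpin. A lack of overlap in a gene chosen by its call adds no support to that call. Over all genes, 9.48% had all 6 knockdown libraries above both SCR libraries and 12.4% had all 6 below, 21.9% in either direction. These counts lean on the design: a fit of 2 groups, in which differences between hairpins count as spread, called 175 genes, and leaving out SCR replicate 2 called 505 in the average and 68 with every hairpin. The average count was 1263 without SCR replicate 1, 822 and 854 without KD1 replicates 1 and 2, and 1205 without KD2 replicate 2. The KD1 count was 725 without SCR replicate 2, and 121 and 141 without 1 of its own libraries. The KD2 count was 83 and 57 without 1 of its own libraries, 182 without SCR replicate 2, and 157 and 154 without a KD1 library. The KD3 count was 485 and 95 without 1 of its own libraries, 417 without SCR replicate 1, 352 and 372 without a KD1 library and 578 without KD2 replicate 1. The hairpin set fell to 28 without KD1 replicate 1, 29 without KD1 replicate 2, 43 and 33 without KD2 replicates 1 and 2, and 41 without KD3 replicate 2.

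**Figure D1:**
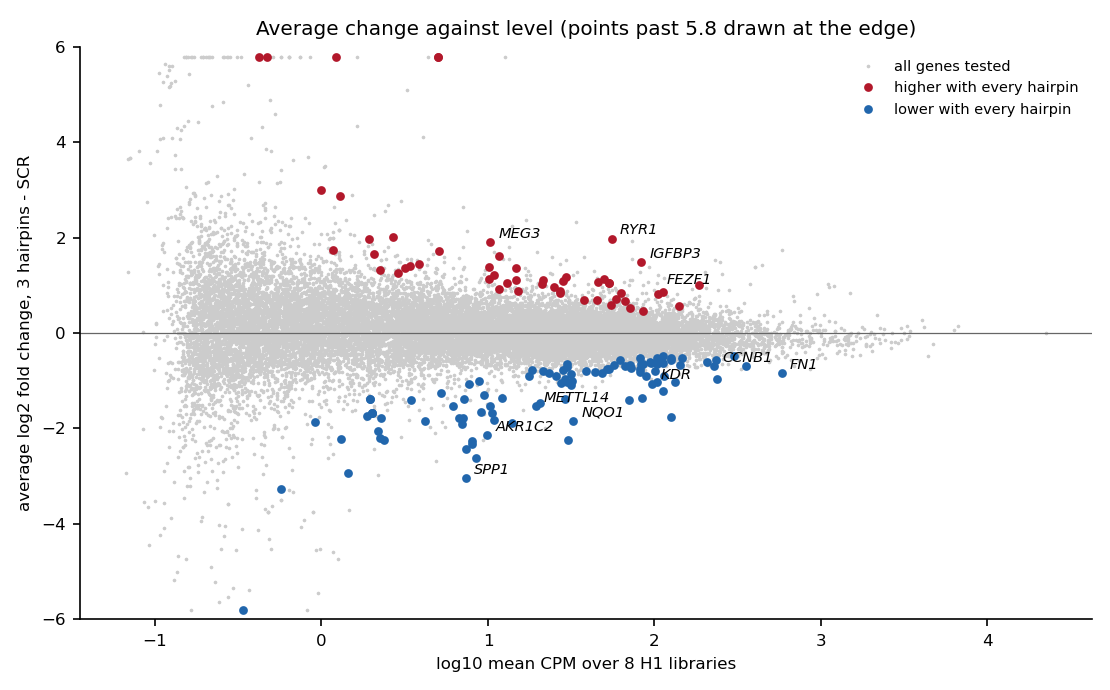
Average log2 fold change of the 3 hairpins against SCR (vertical axis) by the log10 of the mean CPM over the 8 H1 libraries (horizontal axis), 1 point per gene tested; points past 5.8 are drawn at the edge. Red and blue points are the 52 genes higher and the 99 lower with every hairpin; METTL14 sits at -1.54 among the blue points.

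Membership in the set of 151 rested on the threshold. Just inside it was SCG2, with a largest adjusted p of 0.0482 over the hairpins, followed by SOX21 at 0.0487 and HAS3 at 0.0494. Just outside were SERPINE2 at 0.0504 and ETS1 at 0.0506.

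Among the largest falls were those of SPP1, GDA, ANXA1, TLR4 and MSC. SPP1, which encodes the secreted phosphoprotein osteopontin, was at 20.2 and 22.3 CPM with SCR and at 1.52 to 5.22 CPM (median 2.48) in the knockdown libraries. All 6 were below both SCR libraries, with a log2 fold change of -3.04 (SE 0.24, edgeR adjusted p = 0.000626). GDA, the guanine deaminase, was at 2.97 and 5.26 CPM with SCR and 0.305 to 0.926 CPM (median 0.525) after knockdown, a log2 fold change of -2.93. ANXA1, a phospholipid-binding annexin, was at 63.4 and 83.2 CPM with SCR and 7.08 to 22.8 CPM (median 16.8) after knockdown, a log2 fold change of -2.25. Neither gene's groups overlapped. TLR4, the receptor for bacterial lipopolysaccharide, fell by 2.26 on the log2 scale (SE 0.15, edgeR adjusted p = 0.000271), with -2.80 for KD1, -2.69 for KD2 and -1.30 for KD3. The transcription factor gene MSC fell by 2.22 on the log2 scale.

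The largest rises, among genes with a symbol and a mean of at least 1 CPM, included an imprinted RNA and a binding protein of growth factors. MEG3, an imprinted long noncoding RNA, was at 3.1 and 3.6 CPM with SCR and at 10.8 to 14.4 CPM (median 12.7) after knockdown. The 6 knockdown libraries lay well above the SCR pair, and the log2 fold changes by hairpin were 1.94, 1.93 and 1.85. IGFBP3, which binds insulin-like growth factors outside the cell, was at 38.3 and 32 CPM with SCR and 70.6 to 129 CPM (median 97.2) after knockdown, a log2 fold change of 1.49 (SE 0.18, edgeR adjusted p = 0.00444). ATP6V1B1, a subunit of the vacuolar proton pump, was at 0.158 and 0.124 CPM with SCR and at 0.691 to 2.32 CPM after knockdown. TBC1D26 was at 0.289 and 0.149 CPM with SCR and at 1.3 to 2.06 CPM after knockdown. Both genes had few counts in all libraries, and TBC1D26 has close relatives between which estimated counts may divide reads. RYR1, FAR2P1, STX17-DT, LINC00954 and RIPOR3 had log2 fold changes of 1.98, 1.97, 1.75, 1.65 and 1.40. FAR2P1 is a pseudogene and LINC00954 and STX17-DT are noncoding.

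**Figure D2:**
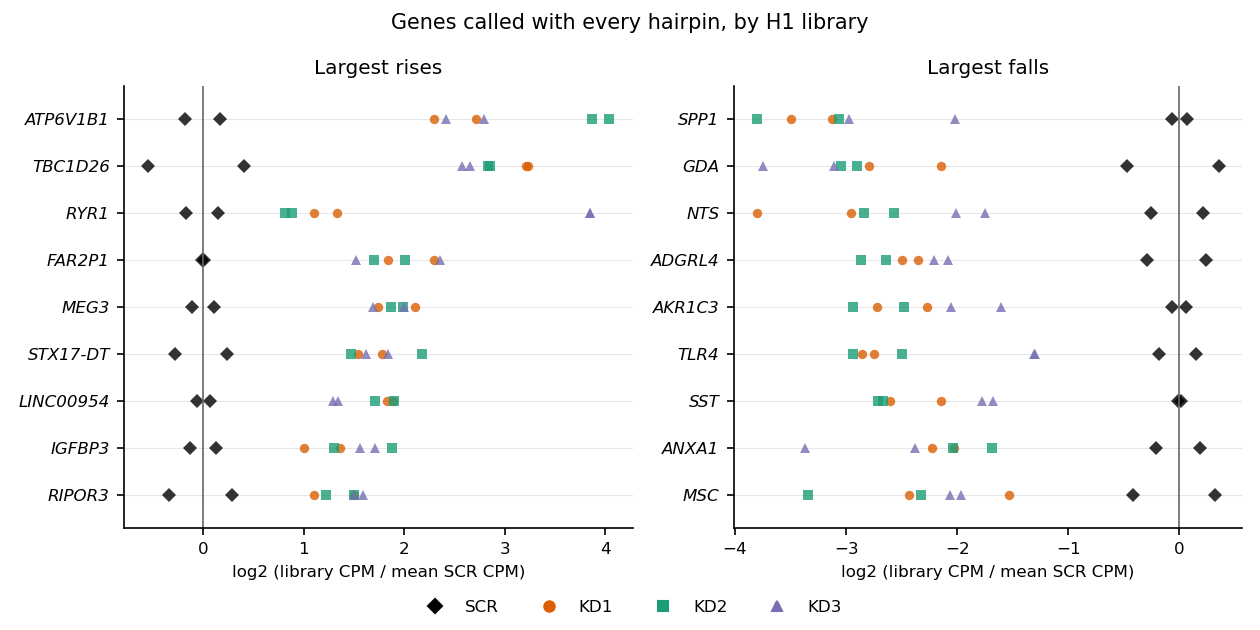
Level in each H1 library over the mean of the 2 SCR libraries, on the log2 scale, for 9 of the largest rises (left) and 9 of the largest falls (right) called with every hairpin; diamonds are SCR and the other symbols the hairpins. In all 18 genes the knockdown libraries lie on 1 side of both SCR libraries, which the choice of genes called with every hairpin largely sets. RYR1 with KD3 stands apart at 163 CPM in both libraries.

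Other genes called with every hairpin are named here after their values were seen. FZD10, a Wnt receptor, was at 27 and 19.3 CPM with SCR and at 4.57 to 10.2 CPM after knockdown, a log2 fold change of -1.83. FZD5, another Wnt receptor, moved the other way: 102 and 107 CPM with SCR and 193 to 233 CPM after knockdown, a log2 fold change of 1.01 with every hairpin called. Neither gene's groups overlapped in these libraries, which choosing genes called with every hairpin largely sets.

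NRF2 is the transcription factor that answers oxidative and electrophilic stress, and its textbook targets make glutathione, recycle thioredoxin, reduce quinones and store iron. Of 22 such genes tested, 12 fell in the average (54.5%, against 5.62% of all genes called lower) and 0 rose, and 14 had an unadjusted p under 0.05 in edgeR, while DESeq2 called 14. The median log2 fold change was -0.50, against 0.01 over all genes, and 5 genes fell with every hairpin. By hairpin, 9 fell with KD1, 6 with KD2 and 7 with KD3, with medians of -0.49, -0.53 and -0.55. NQO1, the quinone reductase, was at 70.2 and 69.8 CPM with SCR and at 12.4 to 25.5 CPM (median 19.7) after knockdown. Every knockdown library lay far below the SCR pair, with a log2 fold change of -1.84 (SE 0.15, edgeR adjusted p = 0.000589). TXN, the cytosolic thioredoxin, was at 128 and 146 CPM with SCR and at 61.7 to 87 CPM (median 72.1) after knockdown, a log2 fold change of -0.91 (SE 0.10). The aldo-keto reductase AKR1C3 was at 19 and 20.8 CPM with SCR and at 2.6 to 6.52 CPM after knockdown, a log2 fold change of -2.33. Its relatives AKR1C2 and AKR1C1 fell by 2.14 and 1.78, but these 3 genes are neighbouring copies of high similarity on chromosome 10, and reads may be divided between them uncertainly.

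Among the NRF2 targets that fell only in the average, HMOX1, the heme oxygenase, was at 18.7 and 19.4 CPM with SCR and at 5.17 to 14.7 CPM (median 9.24) after knockdown. Its log2 fold change was -1.03 (SE 0.21, edgeR adjusted p = 0.0235), and no knockdown library reached the SCR pair. The thioredoxin reductase TXNRD1 fell by 0.56, PIR by 0.74 and ME1, the malic enzyme, by 0.96. FTH1, the ferritin heavy chain, fell by 0.52, TALDO1 of the pentose phosphate pathway by 0.39 and GCLC, which begins glutathione synthesis, by 0.47. Others did not pass the test: SLC7A11, the cystine transporter, had a log2 fold change of -0.26 (adjusted p = 0.557) and SRXN1 of -0.11. Without SCR replicate 2 the falling count was 6, and in the fit of 2 groups it was 5. Without KD1 replicate 1 or 2 it was 7 each, without SCR replicate 1 it was 8, and without a KD2 or KD3 library it was 10 to 13. The motif TGACNNNGC, the core that NRF2 is known to bind, was looked for on both strands in the 250 bases upstream of RefSeq starts (GRCh38.p14). It occurs in 5 of 18 of these promoters (27.8%), in 6 of 20 promoters of the replication genes described next (30%) and in 12% of 13655 promoters of tested genes. The 5 NRF2 targets with the motif were not among the genes lower with every hairpin. A pair of them that fell in the average are shown with the match in capitals. They are ME1 at chr6:83431052-83431301 on the minus strand and TXNRD1 at chr12:104215529-104215778 on the plus strand.
ME1: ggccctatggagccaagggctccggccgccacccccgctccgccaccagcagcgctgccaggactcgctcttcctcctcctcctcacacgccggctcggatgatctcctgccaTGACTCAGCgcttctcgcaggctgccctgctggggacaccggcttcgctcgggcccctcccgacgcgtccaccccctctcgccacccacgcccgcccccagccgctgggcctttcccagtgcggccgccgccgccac
TXNRD1: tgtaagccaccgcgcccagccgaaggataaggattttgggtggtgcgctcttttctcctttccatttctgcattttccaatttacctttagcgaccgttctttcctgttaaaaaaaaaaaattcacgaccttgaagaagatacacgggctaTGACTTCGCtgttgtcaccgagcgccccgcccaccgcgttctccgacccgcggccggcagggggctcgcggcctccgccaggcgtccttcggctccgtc
A match is a run of letters, not a measured binding site. Of the genes lower with every hairpin, 8.96% hold the motif, below the share of all promoters.

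Genes of DNA replication and mitosis were lower after depletion. Of 24 replication genes tested, 13 fell in the average (54.2%, against 5.62% of all genes) and 0 rose, with a median log2 fold change of -0.46. Of 27 mitotic genes, 9 fell (33.3%) and 0 rose, with a median of -0.39. By unadjusted p, edgeR had 19 replication and 20 mitotic genes under 0.05, and DESeq2 called 16 and 17. The falls were uneven over the hairpins: replication genes called lower numbered 17 with KD1, 2 with KD2 and 3 with KD3, and their medians were -0.73, -0.25 and -0.35. No replication gene and 1 mitotic gene passed with every hairpin. In each list 15 genes had all 6 knockdown libraries below both SCR libraries, against 12.4% of all genes. At an unadjusted p under 0.05 with every hairpin there were 10 replication genes, and DESeq2 called 5.

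CCNB1, the cyclin that drives entry into mitosis, was at 303 and 334 CPM with SCR and at 171 to 217 CPM (median 201) after knockdown. The groups were well apart, with a log2 fold change of -0.69 (SE 0.08, edgeR adjusted p = 0.00367). Its kinase CDK1 was at 144 and 191 CPM with SCR and at 89.2 to 130 CPM (median 108) after knockdown, a log2 fold change of -0.63 (SE 0.12). BIRC5, or survivin, fell by 0.56, PTTG1, or securin, by 0.59 and the cyclin CCNA2 by 0.46. RRM2, a subunit of the enzyme that makes deoxyribonucleotides, was at 114 and 131 CPM with SCR and at 52.6 to 95.1 CPM (median 78.9) after knockdown. It fell by 0.76 in the average. Its log2 fold changes were -1.18 with KD1, -0.50 with KD2 and -0.61 with KD3, and they differed in the edgeR test over all 3 hairpins (adjusted p = 0.0407). PCNA, the sliding clamp of the polymerases, was at 252 and 265 CPM with SCR and at 108 to 214 CPM (median 179) after knockdown, a log2 fold change of -0.67, and CCNE1 and GMNN fell by 0.74 and 0.68. For CCNE1 the log2 fold changes were -0.93 with KD1, -0.22 with KD2 and -1.08 with KD3. Other proliferation genes did not pass the test: MKI67 had a log2 fold change of 0.11 (adjusted p = 0.766) and TOP2A of -0.00 (adjusted p = 0.997). Both varied within SCR, MKI67 from 104 to 166 CPM and TOP2A from 329 to 621 CPM. Without SCR replicate 2 the falling counts were 6 for replication and 3 for mitosis, and in the fit of 2 groups they were 0 and 1. With the trend on GC content and length removed both were 16.

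**Figure D3:**
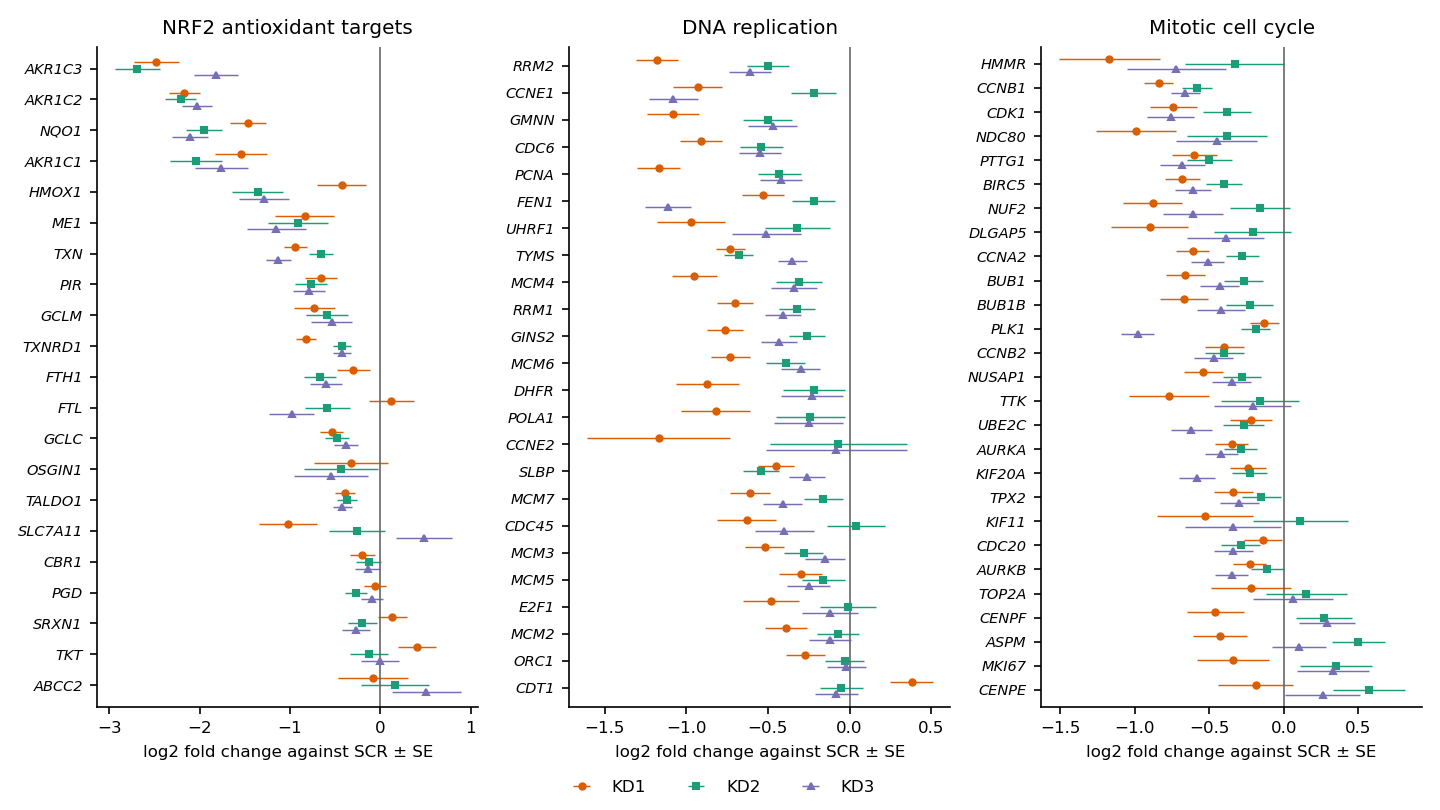
Log2 fold change of each hairpin against SCR with its SE, for tested members of 3 lists: NRF2 targets (21 shown), DNA replication (24) and mitosis (27). Most points lie left of 0 in each list, and KD1 (orange) lies furthest left in most replication genes, whose KD1 median was -0.73.

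Mitotic promoters are known for repeats of the motif CCAAT, bound by the factor NF-Y. On both strands of the 250 upstream bases, CCAAT occurs in 18 of 22 mitotic promoters (81.8%) and 13 of 20 replication promoters (65%), against 34.4% of all. It is not particular to cell cycle genes, since 10 of 14 promoters of the eye field and forebrain list (71.4%) hold it as well. Of the genes lower with every hairpin 34.3% hold it, near the share of all promoters. Stretches of 120 bases upstream of the start are shown for the cyclin genes CCNB1 (chr5:69167030-69167149, plus strand) and CCNB2 (chr15:59105026-59105145, plus strand) and for CDKN3 (chr14:54396887-54397006, plus strand) and CENPW (chr6:126339995-126340114, plus strand), with the motif in capitals as read on the gene's strand. CCNB1, CDKN3 and CENPW fell with every hairpin, and CENPW holds no match in this stretch. CCNB2, with 3 matches, was not among the genes lower with every hairpin. CDK1, which fell in the average only, holds 0 matches in its stretch of 120 bases.
CCNB1: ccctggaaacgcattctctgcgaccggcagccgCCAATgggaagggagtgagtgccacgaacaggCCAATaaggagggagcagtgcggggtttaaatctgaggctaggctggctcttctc
CCNB2: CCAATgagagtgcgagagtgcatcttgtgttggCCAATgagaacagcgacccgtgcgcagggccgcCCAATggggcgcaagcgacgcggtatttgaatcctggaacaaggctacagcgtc
CDKN3: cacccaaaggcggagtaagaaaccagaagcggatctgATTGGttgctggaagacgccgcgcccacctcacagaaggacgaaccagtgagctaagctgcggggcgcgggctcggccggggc
CENPW: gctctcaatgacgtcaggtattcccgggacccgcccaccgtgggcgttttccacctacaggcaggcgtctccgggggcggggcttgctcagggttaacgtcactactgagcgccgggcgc
CDKN3, a phosphatase of cyclin-dependent kinases, was at 31.6 and 37.5 CPM with SCR and at 14.8 to 21.4 CPM after knockdown, a log2 fold change of -0.83. CENPW, a centromere protein, was at 45.4 and 49.6 CPM with SCR and at 21 to 28.7 CPM, a log2 fold change of -0.86. WEE1, the kinase that holds CDK1 inactive, was at 131 and 135 CPM with SCR and at 87.4 to 99.8 CPM, a log2 fold change of -0.52. CDKN3, CENPW and WEE1 were named after their values were seen, and none of them overlapped between groups.

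Genes of the eye field and forebrain were higher. Of 22 tested, 8 rose in the average (36.4%, against 3.13% of all genes called higher) and 1 fell, with a median log2 fold change of 0.44. The hairpins called 7, 7 and 6 of them higher, and 3 rose with every hairpin. SIX3, which specifies the eye field and anterior forebrain, was at 48.6 and 43.4 CPM with SCR and at 61.8 to 96.1 CPM (median 69.7), a log2 fold change of 0.67 (SE 0.11). FEZF1, a forebrain zinc finger gene, was at 76.8 and 56.8 CPM with SCR and at 107 to 130 CPM (median 117), a log2 fold change of 0.81. The groups of SIX3 and FEZF1 did not overlap, and the 3 hairpins moved FEZF1 by 0.80, 0.86 and 0.78. RAX rose by 0.94, LHX2 by 0.66 and OTX2 by 0.45. OTX2 lost the call in the fit of 2 groups and when SCR replicate 2 or any of the 6 knockdown libraries was left out. MAB21L2, an eye gene, was at 12.1 and 9.5 CPM with SCR and at 15.1 to 45.6 CPM (median 35.5), a log2 fold change of 1.45, with unequal effects by hairpin (2.08, 1.72 and 0.56, adjusted p = 0.0234). TBR1, a marker of cortical neurons, went the other way, from 20.2 and 22.7 CPM with SCR to 8.35 to 16.9 CPM (median 11.7), a log2 fold change of -0.90 (SE 0.14). The rising count was 2 without SCR replicate 2 and 1 in the fit of 2 groups, 5 without KD1 replicate 2, and 6 to 9 without any other library.

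Genes of the midbrain, hindbrain and dorsal neural tube fell more often than they rose. Of 26 midbrain, hindbrain and spinal cord genes tested, 8 fell (30.8%, against 5.62% of all genes) and 2 rose (7.69%, against 3.13%), with a median of -0.25, and 0 passed with every hairpin (1 at an unadjusted p under 0.05 and 0 with DESeq2). By hairpin 5, 4 and 6 were called lower. LMX1A, of the roof plate and midbrain floor, was at 7.9 and 6.25 CPM with SCR and at 1.39 to 5.7 CPM (median 2.32) after knockdown. No library overlapped, and the log2 fold changes by hairpin were -0.46, -1.61 and -2.06, which differed (adjusted p = 0.0282). EN1, of the midbrain and hindbrain boundary, was at 1.44 and 0.794 CPM with SCR, 1.72 and 1.04 CPM with KD1, 0.217 and 0.0957 CPM with KD2, and 0 and 0.0251 CPM with KD3. EN2 and PAX5 were also called lower, and FGF8, a signal of the same boundary and of the anterior forebrain, was called higher. FGF8 was at 13.9 and 12.8 CPM with SCR, 16.1 and 15.1 CPM with KD1, 46.1 and 41.9 CPM with KD2, and 44.7 and 35.7 CPM with KD3. The KD1 libraries thus stayed near SCR for EN1 and FGF8 while KD2 and KD3 did not. Of 18 choroid plexus and roof plate genes, 4 fell (22.2%) and 1 rose (5.56%), the rise being that of OTX2 with the losses given above: GDF7, WNT3A, WNT8B and LMX1A fell, with log2 fold changes of -2.68, -1.05, -1.14 and -1.38. GDF7 was at 13.2 and 6.8 CPM with SCR and at 8.62 and 7.92 CPM with KD1, but at 0.194 to 1.03 CPM with KD2 and KD3. The fit of 2 groups called 0 of the midbrain, hindbrain and roof plate genes lower, and without SCR replicate 1 the midbrain, hindbrain and spinal cord list had 5 falls. Its 2 rises became 1 without SCR replicate 2, either KD1 library, KD2 replicate 2 or either KD3 library, and 0 with 2 groups.

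**Figure D4:**
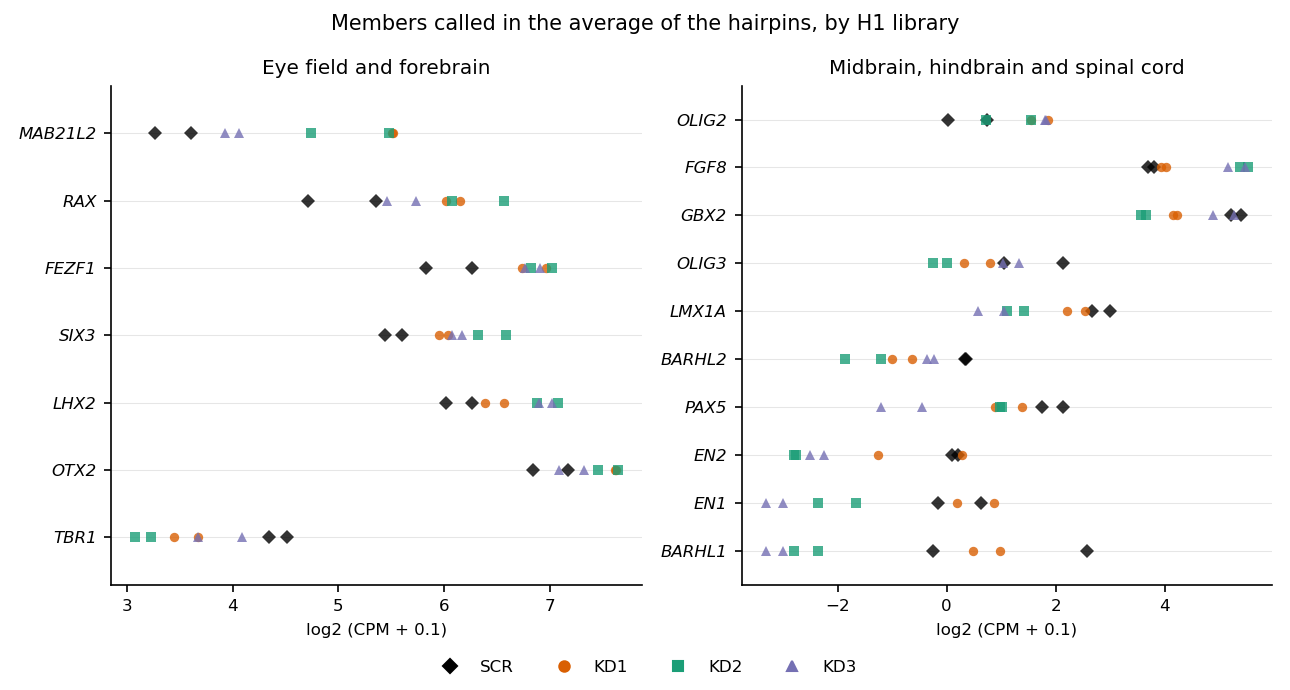
Level in each H1 library as log2 (CPM + 0.1) for members of the eye field and forebrain list (left) and of the midbrain, hindbrain and spinal cord list (right) that were called in the average. On the left SCR (diamonds) lies below all knockdown libraries in 5 of the 7 genes shown, overlaps them in OTX2 and lies above them in TBR1; on the right KD1 stays with SCR for EN1 and FGF8.

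Neural crest genes moved in both directions. Of 21 tested, 8 fell (38.1%, against 5.62% of all genes) and 3 rose (14.3%, against 3.13%). With every hairpin 3 fell, against 0.449% of all genes. EDNRB, the endothelin receptor of crest cells, was at 36.9 and 41.4 CPM with SCR and at 19.7 to 24.2 CPM (median 20.3) after knockdown, a log2 fold change of -0.90 (SE 0.10). MSX1 was at 56.2 and 40.2 CPM with SCR and at 20.7 to 28.3 CPM (median 22.4), a log2 fold change of -1.02, and SNAI2 was at 14.3 and 13.7 CPM with SCR and at 6.05 to 8.21 CPM (SE 0.14, edgeR adjusted p = 0.00668). The groups of these 3 genes did not overlap. FOXD3 and ETS1 fell by 1.46 and 1.16. The pigment cell genes DCT, MITF and PMEL rose in the average, by 1.15, 1.29 and 0.56 on the log2 scale. For MITF the log2 fold changes were 0.26 with KD1, 1.98 with KD2 and 1.63 with KD3. DCT was at 2.07 and 2.43 CPM with SCR and at 3.74 to 6.05 CPM after knockdown, and MITF is also a gene of the retinal pigment layer. The falls numbered 5 without SCR replicate 1 or KD1 replicate 1 and 3 with 2 groups, and the rises 1 without SCR replicate 2 or KD1 replicate 1.

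Early neuroectoderm genes moved in both directions. Of 26 tested, 2 rose (7.69%, against 3.13% of all genes) and 4 fell (15.4%, against 5.62%), with a median of -0.05. The falls numbered 1 without SCR replicate 2 and 2 without SCR replicate 1 or either KD1 library, and the rises 0 without SCR replicate 2, KD2 replicate 2, KD3 replicate 2 or either KD1 library. PAX6 was at 142 and 98.4 CPM with SCR and at 165 to 235 CPM (median 221) after knockdown, a log2 fold change of 0.78 (SE 0.18, edgeR adjusted p = 0.0334). PAX3 and PAX7, both of the dorsal neural tube, fell by 0.70 each in the average, and FABP7, a fatty acid binding protein of radial glia, fell by 0.71. Their effects differed by hairpin. With KD1, KD2 and KD3 the log2 fold changes were -0.20, -0.67 and -1.23 for PAX3 and -0.80, -0.12 and -1.18 for PAX7. For FABP7 they were -1.24, -0.84 and -0.05. Of the pluripotency regulators, 1 of 22 rose (4.55%, near the 3.13% of all genes) and 4 fell (18.2%, against 5.62%). By hairpin, KD1 called 7 lower and 0 higher, KD2 called 0, and KD3 called 1 lower and 1 higher. The medians by hairpin were -0.28, 0.05 and 0.45, and 0 of these genes passed with every hairpin. POU5F1 was at 63.7 and 60.2 CPM with SCR and at 21.6 to 37.7 CPM (median 26.1) after knockdown, a log2 fold change of -1.12 (SE 0.22, edgeR adjusted p = 0.0238) with no overlap. ZFP42 and DNMT3B fell by 0.56 and 0.37, and SOX2 rose by 0.47. NANOG was called lower in the average at -0.96, with hairpins that differed: 1.59 and 1.85 CPM with KD1 and 4.21 and 1.99 CPM with KD2, but 8.88 and 6.88 CPM with KD3, against 7.22 and 6.28 CPM with SCR. LIN28A, the RNA-binding protein, had a log2 fold change of 0.17 (adjusted p = 0.397). The 4 pluripotency falls became 0 without SCR replicate 1, SCR replicate 2, KD1 replicate 1 or KD1 replicate 2.

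General neuronal genes split, 4 of 30 lower (13.3%, against 5.62% of all genes) and 2 higher (6.67%, against 3.13%) with a median of -0.00. GAP43, a protein of growing axons, was at 45.3 and 43.1 CPM with SCR and at 17.1 to 26.9 CPM (median 20.2) after knockdown, a log2 fold change of -1.05 (SE 0.10, edgeR adjusted p = 0.00152). STMN2 and NEFM, also of axons, fell by 0.66 and 0.63, and NEUROG2 and RBFOX3 rose by 0.59 and 0.75. Neither rise was called without SCR replicate 1, KD1 replicate 1 or 2, KD2 replicate 2 or KD3 replicate 1. Several genes of neuropeptides and of their secretory granules were lower. This list was put together after the values were seen. Of 21 genes, 9 were called lower (42.9%, against 5.62% of all genes) and 0 higher. With every hairpin 5 were lower, against 0.449% of all genes, and the fit of 2 groups called 5 lower in the average. NTS, which encodes neurotensin, was at 18.7 and 25.8 CPM with SCR and at 1.6 to 6.64 CPM (median 3.44) after knockdown, a log2 fold change of -2.63 (SE 0.20, edgeR adjusted p = 0.000468). SST, which encodes somatostatin, was at 5.85 and 5.73 CPM with SCR and at 0.885 to 1.81 CPM (median 1.13), a log2 fold change of -2.25. CHGA, a granule protein, was at 51.7 and 48.6 CPM with SCR and at 7.03 to 16 CPM (median 14.1), a log2 fold change of -1.99. None of the 3 overlapped between groups. CRH, SCG2 and the prohormone convertase PCSK1 fell by 1.79, 1.75 and 1.31, while CPE, the carboxypeptidase of the same granules, had a log2 fold change of 0.08 (adjusted p = 0.643).

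Some genes of vessels were lower. Of 17 endothelium and blood genes tested, 3 fell (17.6%, against 5.62% of all genes) and 0 rose, with a median of -0.48, and edgeR had 8 at an unadjusted p under 0.05 while DESeq2 called 4. The falls numbered 1 without SCR replicate 1 or SCR replicate 2. The summed level of the list, largely that of KDR, was 241 and 245 CPM with SCR and 131 to 159 CPM after knockdown. KDR, a VEGF receptor, was at 156 and 161 CPM with SCR and 60.4 to 92.8 CPM (median 76.6) after knockdown. The groups did not overlap, and KDR had a log2 fold change of -1.06 (SE 0.09, edgeR adjusted p = 0.000626). The defining endothelial genes PECAM1 and CDH5 were at few counts, PECAM1 at 1.1 and 1.79 CPM and CDH5 at 2.15 and 1.54 CPM with SCR. Their log2 fold changes were -0.86 and -1.01 with adjusted p of 0.097 and 0.0607. ADGRL4, an adhesion receptor of endothelium, was at 15.4 and 22.2 CPM with SCR and at 2.58 to 4.44 CPM (median 3.5) after knockdown, a log2 fold change of -2.44 (SE 0.16, edgeR adjusted p = 0.00027). ANGPT2 and RHOJ, named after their values were seen, fell by 1.40 and 2.05. A further list of endothelium-associated genes, put together after the values were seen, shares members with the first. Of its 19 genes tested, 6 were called lower (31.6%, against 5.62% of all genes) and 1 higher (5.26%, against 3.13%). In that list 5 genes had a log2 fold change above 0, and the fit of 2 groups called 3 lower and 0 higher. The part of rare endothelial cells in these falls was not tested. Among mesenchyme and matrix genes, FN1, or fibronectin, was at 846 and 879 CPM with SCR and at 387 to 597 CPM (median 502), a log2 fold change of -0.84 (SE 0.10). COL6A3 and FOXC1 fell by 0.99 and 1.22, and the matrix genes COL6A1 and LAMB1 rose by 0.62 and 0.65. Of 23 mesenchyme genes 3 fell (13%, against 5.62% of all genes) and 0 rose. Of 33 matrix genes 3 fell (9.09%) and 2 rose (6.06%, against 3.13% of all genes). The matrix rises numbered 4 without SCR replicate 1, 0 without SCR replicate 2 and 1 without either KD1 library.

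Hypoxia and glycolysis genes were higher, but unevenly. All 28 tested had an average log2 fold change above 0, with a median of 1.04, while 3 passed the edgeR test and 19 had an unadjusted p under 0.05. KD1 called 14 higher, and KD2 and KD3 called 0 each (9 and 4 at an unadjusted p under 0.05, 4 and 3 with DESeq2), with medians of 1.73, 0.95 and 0.64. The summed level was 5178 and 8152 CPM in the SCR libraries and 7682 to 19491 CPM in the knockdown libraries, so the groups overlapped and SCR itself varied. PDK1, the mitochondrial kinase that inhibits pyruvate dehydrogenase, was at 23.2 and 15.8 CPM with SCR and at 31.3 to 96.8 CPM (median 42.2), a log2 fold change of 1.31 (SE 0.25, edgeR adjusted p = 0.0238). ANGPTL4 and the demethylase KDM3A rose by 1.18 and 0.73. VEGFA was at 116 and 64.1 CPM with SCR and at 114 to 529 CPM (median 268), a log2 fold change of 1.53 with an adjusted p of 0.138. Calls in this list depend on the fit: 17 with DESeq2, 26 without the low-count filter, 12 without KD2 replicate 1, 5 without KD2 replicate 2, 1 without KD3 replicate 2, and 0 without SCR replicate 2 or with 2 groups. The motif ACGTG, the core that hypoxia-inducible factors bind, occurs in 13 of 25 of these promoters (52%) and in 22.3% of all, searched as above. It is also in 9 of 22 promoters (40.9%) of the mitotic list, in which 0 genes rose.

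Signalling genes changed a few at a time. In the FGF list SPRY4, a feedback inhibitor of FGF and ERK signalling, was at 149 and 160 CPM with SCR and at 54.7 to 77.3 CPM (median 57.9) after knockdown. It fell with every hairpin, without overlap, with a log2 fold change of -1.36 (SE 0.10, edgeR adjusted p = 0.000468). DUSP6, another feedback gene, was at 268 and 300 CPM with SCR and at 142 to 224 CPM (median 182), a log2 fold change of -0.66, while the ligands FGF8 and FGF9 rose by 1.18 and 1.07. Of 30 Wnt genes 6 fell (20%, against 5.62% of all genes) and 1 rose (3.33%, near the 3.13% of all genes). KD1 called 3 of them lower and 2 higher, KD2 called 1 lower and 1 higher, and KD3 called 7 lower and 3 higher. The rise was that of DKK3, which was called with every hairpin. It went from 14.7 and 15.7 CPM with SCR to 30.7 to 39.2 CPM (median 33.9), a log2 fold change of 1.17 (SE 0.11). The Wnt targets SP5, LEF1 and AXIN2 fell by 1.33, 0.56 and 0.50 in the average. For SP5 the log2 fold changes were -0.22 with KD1, -1.25 with KD2 and -2.52 with KD3. The Wnt falls numbered 2 without SCR replicate 1 and 3 without KD1 replicate 1 or 2. Of 27 BMP and TGF-beta genes 7 fell in the average (25.9%, against 5.62% of all genes) and 0 rose, with 11 at an unadjusted p under 0.05 and 10 called with DESeq2. The hairpins were less uniform: KD1 called 4 lower and 3 higher, and KD2 and KD3 called 4 lower and 1 higher each. With every hairpin 1 fell. ID3, a direct BMP target, was at 172 and 149 CPM with SCR and at 84.8 to 116 CPM (median 107), a log2 fold change of -0.66, and the antagonists GREM1 and BAMBI fell by 0.98 and 0.87. Of 21 Notch genes, NOTCH1 and MFNG rose (9.52%, against 3.13% of all genes), by 0.49 and 0.75, and 0 fell. The fit of 2 groups called 0 Notch genes higher. Of 15 hedgehog genes 0 were called in the average (4 at an unadjusted p under 0.05 in edgeR, 2 with DESeq2), while KD1 called 2 lower and KD3 called 2 higher and 1 lower.

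Cholesterol synthesis genes were lower in part. Of 24 tested, 5 fell (20.8%, against 5.62% of all genes), 2 of them with every hairpin, and 1 rose (4.17%, near the 3.13% of all genes). ACAT2, which joins acetyl units at the start of the pathway, was at 157 and 180 CPM with SCR and at 71 to 96.7 CPM (median 80.1), a log2 fold change of -1.03 (SE 0.12, edgeR adjusted p = 0.00367). IDI1, the isomerase of isopentenyl diphosphate, was at 105 and 123 CPM with SCR and at 62.1 to 82 CPM (median 72.5), a log2 fold change of -0.64. Neither gene's groups overlapped. FDPS and NSDHL fell by 0.55 and 0.41. The falls numbered 1 without SCR replicate 2 and 3 without SCR replicate 1, KD1 replicate 2, KD2 replicate 2 or KD3 replicate 2. STARD4, a sterol carrier, rose by 0.70. ABCA1, which exports cholesterol and was named after its values were seen, rose with every hairpin by 1.05.

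Of 22 imprinted genes 6 rose (27.3%, against 3.13% of all genes) and 2 fell (9.09%, against 5.62%). Besides MEG3, DLK1 was at 1068 and 805 CPM with SCR and at 1397 to 2408 CPM (median 1564), a log2 fold change of 0.84 (SE 0.18, edgeR adjusted p = 0.0251). Both lie in the imprinted stretch of chromosome 14, where DLK1 is expressed from the paternal and MEG3 from the maternal copy. IGF2 was at 23.5 and 16.5 CPM with SCR and at 28.9 to 43.2 CPM (median 35), a log2 fold change of 0.80, and KCNQ1OT1, ZDBF2 and L3MBTL1 rose too, KCNQ1OT1 by 0.98 and L3MBTL1 by 0.68. PLAGL1 and GRB10 fell by 0.62 and 0.47. The 6 rises became 2 without SCR replicate 2 and 1 with 2 groups. The 2 falls became 1 without either SCR or either KD1 library and 0 with 2 groups.

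Of 25 genes of the m6A machinery other than METTL14, 1 fell and 1 rose in the average (8%, near the 8.74% of all genes), with a median of 0.03. KD1 called 4 lower and 1 higher, and KD2 and KD3 called 1 lower each. WTAP was at 137 and 149 CPM with SCR and at 93.5 to 111 CPM (median 102), a log2 fold change of -0.49 (SE 0.08, edgeR adjusted p = 0.0106), and it fell with every hairpin. ZC3H13 was at 45.7 and 63 CPM with SCR and at 72.5 to 98.6 CPM (median 76.6), a log2 fold change of 0.57 (SE 0.14). The groups of WTAP and of ZC3H13 did not overlap. METTL3 was at 71.6 and 73.6 CPM with SCR and at 68.9 to 87.7 CPM, a difference of 0.07 on the log2 scale (SE 0.09, edgeR adjusted p = 0.644). WTAP was not called without SCR replicate 2, nor ZC3H13 without SCR replicate 1, KD1 replicate 1 or 2, or KD3 replicate 2. Genes of the interferon response, which unmethylated or double-stranded RNA can trigger, were not called in the average: 0 of 26 passed in edgeR, 3 had an unadjusted p under 0.05 and DESeq2 called 0. By hairpin, KD1 called 2 of them higher and KD3 called 1 lower in edgeR, and DESeq2 called 4 with each of these hairpins. Also in the average, of 18 surface ectoderm genes 0 passed (6 unadjusted, 3 with DESeq2), of 23 immediate early genes 0 (5 unadjusted, 4 with DESeq2) and of 27 ribosomal protein genes 0 (0 unadjusted, 0 with DESeq2). By hairpin, edgeR called 3 surface ectoderm genes higher with KD1 and 1 with KD2, and 1 immediate early gene higher with KD1. Of 24 p53 targets 2 were called (8.33%, near the share of all genes): DDB2 rose by 0.62 and TP53I3 fell by 0.44. Neither was called without SCR replicate 1 or 2, KD1 replicate 1 or 2, or KD2 replicate 2.

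**Figure D5:**
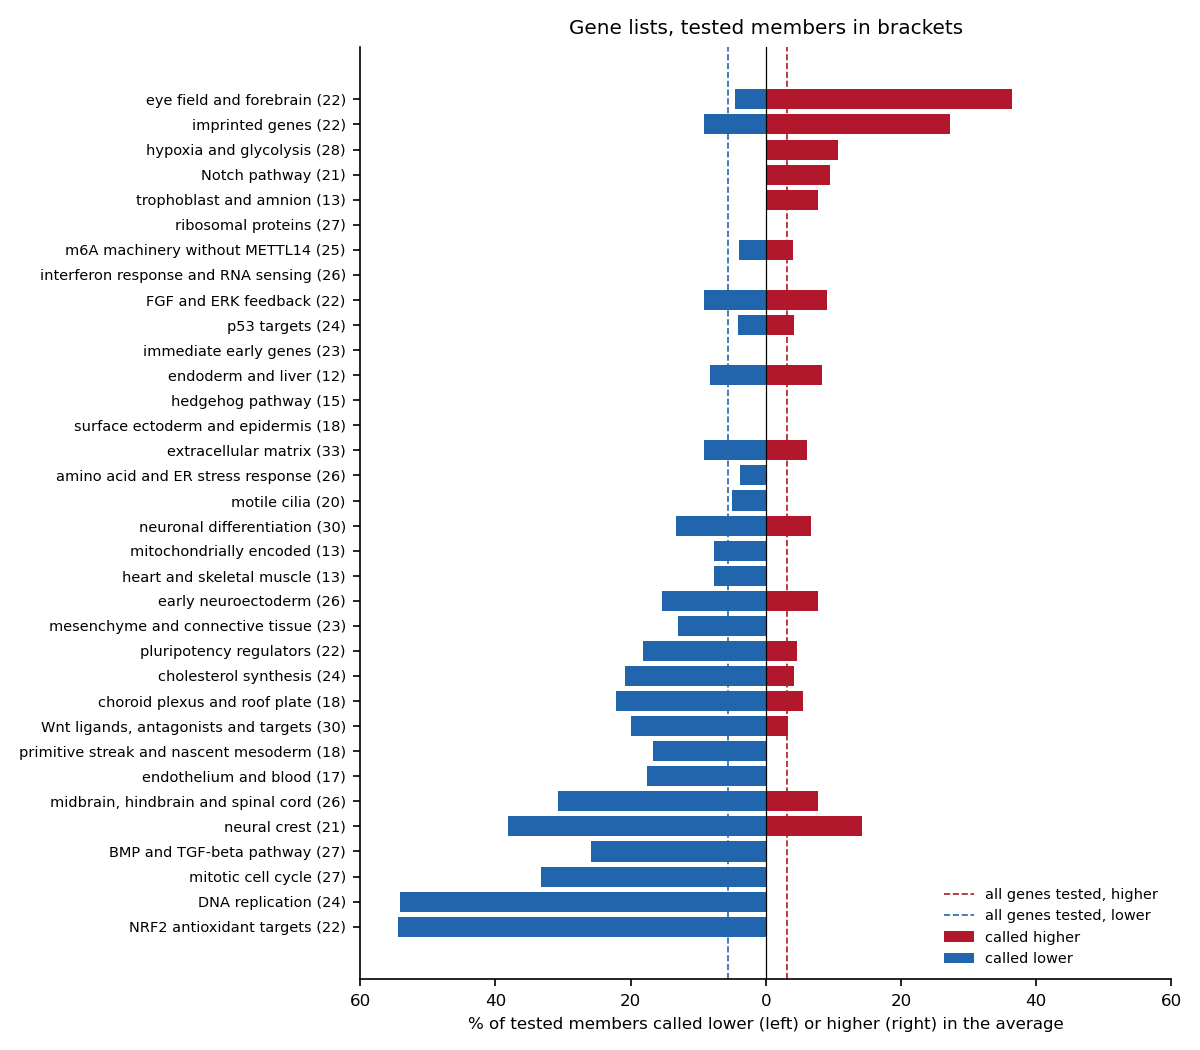
Share of the tested members of each of 34 lists that was called lower (blue, left) or higher (red, right) in the average of the hairpins; dashed lines are the shares over all genes, 5.62% lower and 3.13% higher. NRF2 targets (54.5% lower) and DNA replication (54.2% lower) are at the bottom and the eye field and forebrain list (36.4% higher) at the top.

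Small proteins of large complexes also recurred among the falls, and these lists were put together after the values were seen. Of 77 nuclear-encoded subunits of the respiratory chain and ATP synthase, 34 were called lower (44.2%) and 0 higher, with a median log2 fold change of -0.38, and NDUFB3, NDUFB9, NDUFC2, ATP5MF and ATP5MC3 fell with every hairpin. Of 17 core proteasome genes 14 were called lower (82.4%), and of 18 Sm and LSm genes, whose proteins coat spliceosomal RNAs, 9 were (50%). The share over all genes was 5.62%. The proteasome gene PSMA3 was at 132 and 153 CPM with SCR and at 75.9 to 102 CPM (median 96.8), a log2 fold change of -0.65 (SE 0.08). SNRPG, of the Sm ring, was at 114 and 128 CPM with SCR and at 58.3 to 75.8 CPM, a log2 fold change of -0.82. The groups of both genes were apart. The 13 respiratory genes encoded in the mitochondrion gave 1 fall, MT-ND3 at -0.41, and 0 rises. In the fit of 2 groups the falling counts were 7 for the nuclear-encoded respiratory chain, 2 for the proteasome and 3 for the Sm and LSm genes. Without SCR replicate 2 the falling counts were 9 for the respiratory chain, 3 for the proteasome and 5 for the Sm and LSm genes. The respiratory chain count was 20 without SCR replicate 1 and 18 without KD1 replicate 2, and the proteasome count was 9 without KD1 replicate 1.

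Transcript features differed between the genes that rose and those that fell. Among protein-coding genes the longest annotated transcript had a median of 3632 bases over all tested, 5958 bases in genes higher with every hairpin and 3255 bases in genes lower with every hairpin. In the average, higher genes had a median of 4940 bases and lower genes one of 2585 bases, and the respiratory chain genes had a median of 1439 bases. The eye field and forebrain list had a median of 2832 bases, with 36.4% called higher and 4.55% lower. Ribosomal protein genes had a median of 1602 bases and 0 of 27 were called. The replication and mitotic lists, with medians of 3187 and 2973 bases, had 54.2% and 33.3% called lower. All of these list medians are below the 3632 bases of all genes. Median GC content was 50.6% over all, 53.1% in genes higher with every hairpin and 45.8% in those lower. The motif GGACT, the commonest form of the sequence that METTL3 and METTL14 methylate, counted on the transcript strand, had a median density of 0.934 per kb over all, 1.01 per kb in the genes higher with every hairpin and 0.786 per kb in the genes lower. The libraries differ by GC content as well, as given above. The part of length and GC content in these values was not tested beyond the removal of a trend on both. With that trend removed 499 genes were called with every hairpin, of which 142 were among the 151.

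The hairpins did not have equal effects on every gene. The test among KD1, KD2 and KD3 called 694 genes (3.15%), from 92 without KD1 replicate 1 to 1295 without SCR replicate 1. It called 104 without KD1 replicate 2, 169 without KD3 replicate 2, 377 without KD2 replicate 1 or KD3 replicate 1, and 1274 without SCR replicate 2. RYR1, the calcium release channel of skeletal muscle, was at 12.5 and 10 CPM with SCR, 24.2 and 28.4 CPM with KD1, and 19.9 and 20.8 CPM with KD2. With KD3 it was at 163 and 163 CPM, and the effects differed with an edgeR adjusted p of 4.48e-05. CER1, a secreted antagonist of Nodal and BMP, was at 2.44 and 2.43 CPM with SCR, 0.635 and 0.568 CPM with KD1, 0.759 and 0.526 CPM with KD2, and 5.44 and 5.92 CPM with KD3. It was lower with KD1 and KD2 (log2 fold changes -2.01 and -1.91) and higher with KD3 (1.22), each past the threshold. DKK1, a Wnt antagonist, was at 1.42 and 1.86 CPM with SCR, 1.67 and 2.42 CPM with KD1, 0.933 and 0.742 CPM with KD2, and 0.0555 and 0.0251 CPM with KD3. For DKK1 the KD1 libraries stayed near SCR and the KD3 libraries were the lowest.

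The MEL1 libraries, which enter no H1 value other than the alternative with all 12 libraries, hold 3 knockdown libraries and 1 SCR library, so their directions are given without a test. Of the 52 genes higher with every hairpin in H1, 15 (28.8%) were higher in all 3 MEL1 knockdown libraries, against 33.1% of all genes. Of the 99 genes lower in H1, 30 (30.3%) were lower in all 3, against 25.2% of all genes. Both shares are near those of all genes, and the MEL1 SCR library is shallow at 15963241 estimated counts. The median log2 difference of MEL1 knockdown from SCR was -0.21 for the genes lower in H1. It was 0.01 for the genes higher in H1 and 0.06 over all genes.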

How the data were processed

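Total RNA of H1 embryoid bodies was sequenced by the authors after stranded library preparation, per the labels' protocols. Values are estimated counts by Ensembl gene identifier as deposited, with library totals that differ; fastp and kallisto are named in the submitters' processing notes without a version, and the build, annotation and strand setting are not given in the sources used here. Overlapping, antisense and near-identical genes are therefore uncertain. Estimated counts were rounded, filtered with filterByExpr over the 4 groups and scaled by TMM, and 1063 tested identifiers share identical counts with another. Differences were tested with edgeR 4.0.16 in R 4.3.3, using its quasi-likelihood test with robust estimates on 4 group means, with Benjamini-Hochberg adjustment over 22027 genes and a threshold of 0.05. Standard errors are the log2 fold change over the square root of F. CPM values are TMM-scaled. Symbols came from a name table that held 59243 of 65969 identifiers; 2.51% to 2.84% of the counts of an H1 library lack an entry. Coordinates, lengths and GC content are from GENCODE release 29 (GRCh38), promoters from RefSeq (GRCh38.p14).

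The members and the 34 gene lists were chosen with earlier results of these data known, and 5 lists after values were seen. Named were METTL14, the 10 largest rises and falls called with every hairpin (symbol, mean of at least 1 CPM), and from each list the members called with every hairpin, up to 4 others called in the average and, where fewer than 2 were called, the 2 of highest mean. Other genes were named after their values were seen. Some genes that this rule names are not reported here. Alternatives were other scalings and filters, DESeq2 1.42.0, all 12 libraries with 7 group means, removal of a GC and length trend (91.5% of genes have values), 2 groups and leaving out each library. Those of the test among hairpins were added later.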

Additional observations from a re-analysis of the deposited data

Results flagged for a closer look

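A knockdown library stood apart from the other 5 in 8 of 132 named genes, by Dixon's ratio of the gap to the range (critical value 0.625 for 6 libraries). Chance gives about 1 in 20 such genes. The ratios were 0.728 for DLK1 (KD2 replicate 2 at 2408 CPM, the others up to 1672), 0.734 for EDNRB (KD2 replicate 1 at 24.2, the others up to 20.9), 0.743 for EN2 (KD1 replicate 2 at 1.11, the others up to 0.317), and 0.831 for HSP90B1 (KD1 replicate 1 at 848, the others up to 628). They were 0.899 for KCNQ1OT1 (KD1 replicate 1 at 8.62, the others up to 5.2), 0.685 for SPP1 (KD3 replicate 1 at 5.22, the others up to 2.69), 0.804 for SPRY4 (KD3 replicate 1 at 77.3, the others up to 59.1) and 0.782 for ZDBF2 (KD3 replicate 2 at 16.3, the others up to 11.2).

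The effects of KD1, KD2 and KD3 differed for 694 genes, 28 of them named. The edgeR adjusted p among hairpins was 4.48e-05 for RYR1, 0.00118 for CER1, 0.00354 for FGF8, 0.00405 for DKK1, 0.00939 for TLR4, 0.0111 for EN1, 0.0129 for FABP7, 0.0134 for PAX3, 0.0179 for GREM1 and 0.0209 for GDF7. It was 0.0224 for NANOG, 0.0234 for MAB21L2, 0.0255 for CCNE1, 0.0262 for BST2, 0.0276 for PCNA, 0.0281 for WNT8B, 0.0282 for LMX1A, 0.0287 for NEFM and 0.0323 for PSAT1. It was 0.0336 for PAX5, 0.036 for MITF, 0.0404 for EN2, 0.0407 for RRM2, 0.0413 for DUSP6, 0.0423 for PAX7, 0.0428 for SP5, 0.0459 for STMN2 and 0.0493 for BARHL1. BARHL1 also varied within SCR, from 0.744 to 5.88 CPM.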

How the results depend on the processing

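Called genes numbered 1926 in the average, 2804 with KD1, 440 with KD2, 917 with KD3, 151 with every hairpin and 694 among hairpins. In that order they were 3622, 4446, 1943, 2624, 666 and 3573 without the low-count filter. DESeq2 called 2980 in the average, 1390 with KD2, 2057 with KD3, 500 with every hairpin and 2354 among hairpins. With the GC and length trend removed these 5 counts were 3078, 1276, 2164, 499 and 1489, and 2 groups gave 175 in the average. Leaving out each library gave 505 to 1821, 121 to 3044, 57 to 449, 95 to 700, 28 to 131 and 92 to 1295. The cause was not tested, apart from the fewer libraries and the other gene numbers of these fits. RLE and upper-quartile scaling, a mean of at least 1 CPM and all 12 libraries stayed within 1.5 times. Of the 151 genes, 150 were shared with RLE scaling, 147 with DESeq2, 103 with all 12 libraries and 44 without SCR replicate 2. For the 132 named genes and 16 alternatives, no called change turned its direction; 1814 comparisons kept their side of the threshold, 289 lost the call and 5 gained it, and METTL14 stayed called in all 16. No paired analysis was possible because the labels carry no replicate numbers. ME1, KCNQ1OT1, NEUROG2 and TP53I3 were called in 7 of 16, MT-ND3 in 6, and NOTCH1, NSDHL, RBFOX3 and VWF in 8. Genes with no counts in a group, such as those at the edges of the plot of change by level, have fold changes that depth limits.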

Other observations

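Neighbours of MEG3 and DLK1 on chromosome 14 (GENCODE release 29 on GRCh38) were read after their values were seen. From BEGAIN (100537147 to 100587413, minus strand) to MEG8, 5 genes were read, and all 5 had every knockdown library above both SCR libraries, against 9.48% of all genes. In order along the chromosome the log2 fold changes were 1.12 for BEGAIN, 0.84 for DLK1, 1.90 for MEG3, 0.80 for RTL1 and 1.31 for MEG8, of which BEGAIN, DLK1 and MEG3 passed the edgeR test. RTL1 and MEG8 overlap on opposite strands, and MEG8 was at 0.21 and 0.273 CPM with SCR and at 0.423 to 0.861 CPM after knockdown. On the other side of BEGAIN, WDR25 had a log2 fold change of 0.01 and WARS1 of -0.42, with adjusted p of 0.969 and 0.13. Further along, DIO3OS was called higher at 1.32 and DIO3 was not (0.47, adjusted p = 0.235).

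Other genes higher with every hairpin included the orphan nuclear receptor RORA, at 4.62 and 4.39 CPM with SCR and at 8.35 to 14.7 CPM after knockdown, and GLIS3, at 7.01 and 6.52 CPM with SCR and at 14.7 to 21.8 CPM. SOX21, a SOX gene of neural progenitors, was at 78.9 and 58.7 CPM with SCR and at 106 to 159 CPM. All 3 were chosen after their values were seen.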
